A study of Trichosurus vulpecula with 6 samples.

Results

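Pigment cells of the skin are specified and maintained by a small circuit of transcription factors and cell surface receptors. PAX3 and SOX10 activate MITF, the basic helix-loop-helix regulator of melanin synthesis genes, and AP-2 factors (TFAP2A, TFAP2B) act beside it. KIT, the receptor of KIT ligand, EDNRB, the receptor of endothelins, and ERBB3, a neuregulin co-receptor, carry signals that melanocyte precursors need to survive and migrate, while TRPM1, a cation channel gene and an MITF target in human and mouse, marks differentiated melanocytes. Most of these genes are also used elsewhere in skin: SOX10 and ERBB3 in Schwann cells, KIT in mast cells, EDNRB in vessels, and AP-2 factors and ERBB3 in epithelium. These 9 genes were chosen by name, as regulators and receptors of the melanocyte lineage, out of 17965 genes with an assembled transcript in possum skin.

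RNA-sequencing was done on ear punch skin of 3 black and 3 grey adult female common brushtail possums (Trichosurus vulpecula), 1 library per sample. The comparison addresses whether genes of this circuit differ between the coat colours. All 6 libraries were poly(A)-enriched and strand-specific, and the labels give no treatment and no genotype. Levels are in TPM, an abundance corrected for the length of a transcript and the depth of its library, summed over the transcripts that were assembled separately in each library and lay on a gene's strand. The 3 black libraries held 6.47 to 8.51 gigabases of aligned sequence and the 3 grey libraries 4.17 to 10.2. The shallowest was grey replicate 1.

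Of the 15523 genes that averaged 1 TPM or more, 2 were higher and 1 was lower in black skin at an adjusted p of 0.05 (limma, Benjamini-Hochberg), which is 0.0193% of the genes tested. None of the 9 was among them. Genes that mark skin were present in every library: the desmosomal cadherin DSG1 had 1455 to 1592 TPM in black skin and 941 to 1645 TPM in grey skin. Keratin genes such as KRT5, KRT14 and KRT10 had no transcript under those symbols and were not used. Skeletal muscle genes summed to 2614 TPM in black replicate 1, including MYL1, a myosin light chain, at 1262 TPM, and to 1.93 to 6.001 TPM in the other 5 libraries. In whole skin, fewer cells of a type and less RNA per cell cannot be told apart.

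All 9 genes had a mean of at least 1 TPM. TRPM1 reached that mean through its black libraries, since its grey mean was under 1 TPM. Averaged over the 6 libraries, ERBB3 was highest at 65.4 TPM. TFAP2A followed at 35.4 TPM and TFAP2B at 25.02 TPM. MITF had 10.7, SOX10 8.24, EDNRB 6.93 and KIT 5.39 TPM, and TRPM1 (1.78 TPM) and PAX3 (1.41 TPM) came last. TPM is a level per length, so these genes can be set beside each other, although a gene assembled in pieces has each piece counted. ERBB3 was above TFAP2A in 6 of 6 libraries and the ranges did not meet. The same held for TFAP2B over MITF, and narrowly for KIT (lowest 4.08 TPM) over TRPM1 (highest 4.02 TPM). TFAP2A was above TFAP2B and EDNRB above KIT within each of 6 libraries, with ranges that overlapped. MITF and SOX10, SOX10 and EDNRB, and TRPM1 and PAX3 changed places between libraries and did not differ beyond their spread.

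**Figure D1:**
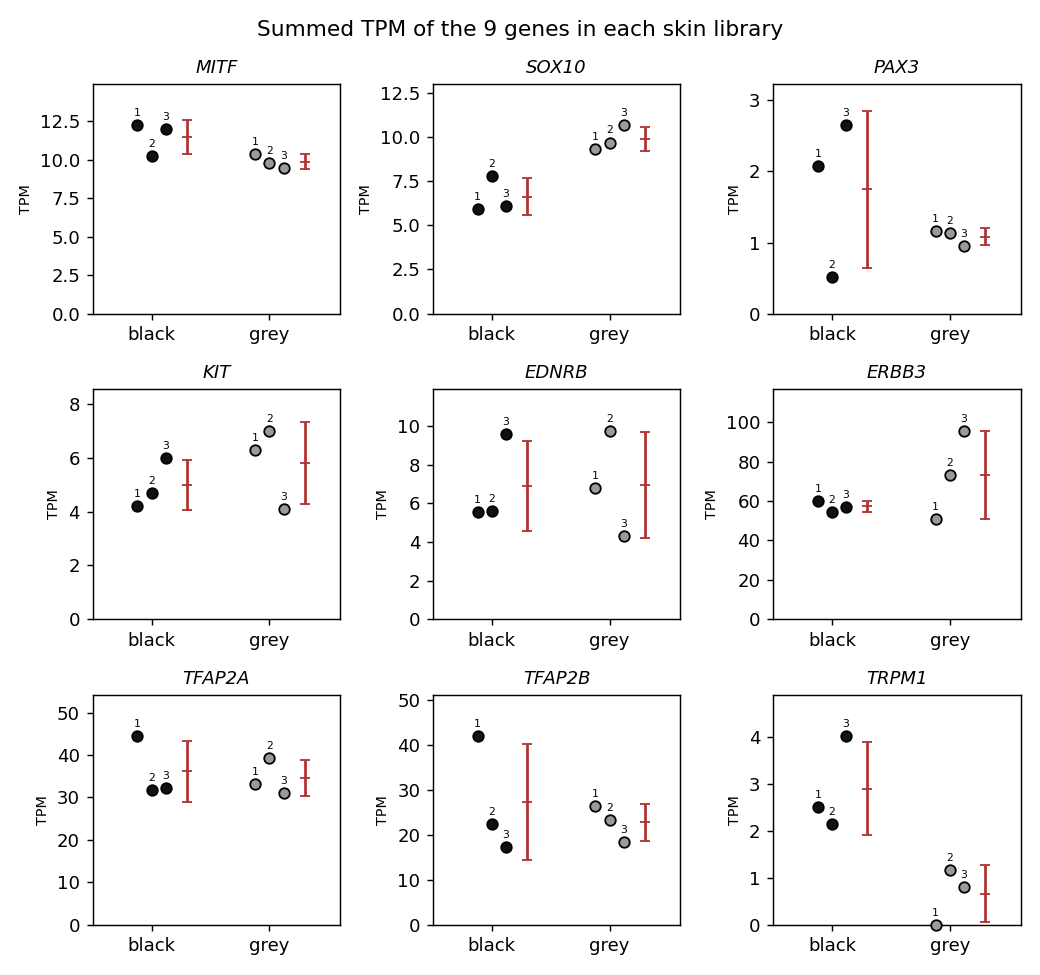
Summed TPM (vertical axes, each from 0) of the 9 genes in the 3 black and 3 grey libraries, numbered by replicate, with the mean and SD of each colour in red. SOX10 was below all grey values in all black libraries, TRPM1 was above all grey values in all black libraries, and the other 7 genes overlapped between colours.

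MITF was the steadiest of the 9. It had 12.2, 10.2 and 11.97 TPM in black skin, against 10.4, 9.75 and 9.49 TPM in grey skin. The means were 11.5 ± 1.09 TPM in black and 9.87 ± 0.463 TPM in grey (SD, n = 3 each), and black replicate 2 lay below grey replicate 1. The log2 fold change was 0.20 ± 0.17 (SE; black minus grey, on the log2(TPM + 1) scale), with a 95% interval of -0.20 to 0.59 and an adjusted p of 1.00 by limma. An exact 2-sided permutation test of mean TPM gave p = 0.2. With 3 against 3 libraries there are 20 assignments, and the smallest p that this test can give is 0.1. The SD of MITF within colours was 0.10 on the log2 scale, which stood at percentile 3.45 of all genes tested, where the median SD was 0.32.

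The small excess of MITF in black skin depended on the scale in whether it separated the groups. In aligned bases per gigabase, the sum of coverage times assembled length over transcripts, MITF had 29667, 26576 and 29402 in black and 26370, 23115 and 23652 in grey. These groups did not overlap (exact permutation p = 0.1), as held for 4.79% of all genes in that direction on that scale. Over the 9 internal exon forms assembled with identical boundaries in all 6 libraries (1132 nt), coverage per aligned gigabase was 6.32, 5.32 and 5.81 in black, against 4.12, 4.97 and 4.82 in grey (exact permutation p = 0.1). These count 1 exon in both its forms (75 and 57 nt), and an exon of 250 nt without its 247 nt form. The unscaled coverage of that 247 nt form was 7.68, 0 and 0 in black and 13.2, 7.22 and 19.3 in grey. This scale thus leaves out more coverage in grey. The part of the choice of acceptor in its separation of the groups was not tested. All these tests are at the limit of what 6 libraries allow.

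In human and mouse, MITF is transcribed from several promoters whose first exons join common downstream exons, and the first exon nearest the common exon 2, called 1M, is the one used in melanocytes. In the possum assembly mTriVul1.pri the RefSeq gene spans chromosome 9, 172240060 to 172502236, on the reverse strand. The 6 libraries held 31 MITF transcripts of 8 to 10 exons, with 10 different first exons. First exons were compared by position alone, since no sequence was read.

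A first exon at 172501925 to 172502200, near the 5′ end of the RefSeq gene, was the only one assembled in all 6 libraries. A long intron of 161176 nt joined it to an exon of 250 nt at 172340499 to 172340748, and from there to exon 2 at 172275017 to 172275244. Transcripts with it had 8.70, 8.12 and 8.73 TPM in black skin and 10.4, 4.13 and 8.56 TPM in grey skin. Its share of MITF TPM was 71.1%, 79.3% and 72.9% in black and 100%, 42.3% and 90.3% in grey, and the groups overlapped (exact permutation p = 1). Grey replicate 1 had no other first exon, whereas grey replicate 2 spread its MITF transcripts over 6.

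A second class began next to exon 2, in the place that exon 1M holds in human and mouse. This downstream first exon, at 172276369 to 172276539, was joined directly to exon 2 across an intron of 1124 nt and left out the exon of 250 nt. It was assembled in black replicates 1 and 3 and in grey replicate 3, at 1.57, 2.27 and 0.56 TPM. Its share of MITF TPM was 12.8%, 0% and 18.9% in black and 0%, 0% and 5.93% in grey. The means were 10.6 ± 9.67% in black and 1.98 ± 3.42% in grey (SD, n = 3 each; exact permutation p = 0.4). The coverage of the exon came to about 3.11, 6.49 and 4.42 reads of 120 bp in those 3 libraries, so its absence from the other 3 cannot be told apart from too few reads to assemble it.

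Exon coverage, summed over the assembled transcripts, gives the levels behind these forms. Coverage per aligned gigabase of the exon of 250 nt was 5.05, 5.25 and 4.59 in black and 5.19, 4.74 and 5.13 in grey, a narrow range. Exon 2 had 6.06, 5.29 and 7.22 in black and 5.97, 5.43 and 7.02 in grey. The upstream exon thus had 83.4%, 99.2% and 63.6% of the coverage of exon 2 in black, against 87.0%, 87.3% and 73.1% in grey. Transcripts with the downstream first exon add to exon 2 and not to the exon of 250 nt, but these percentages do not follow from them alone. In the grey libraries without such a transcript, every MITF transcript held the upstream exon with either acceptor. The percentages there were still 87.0% and 87.3%. What else lowers them was not tested, and the percentages are no measure of the downstream form.

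**Figure D2:**
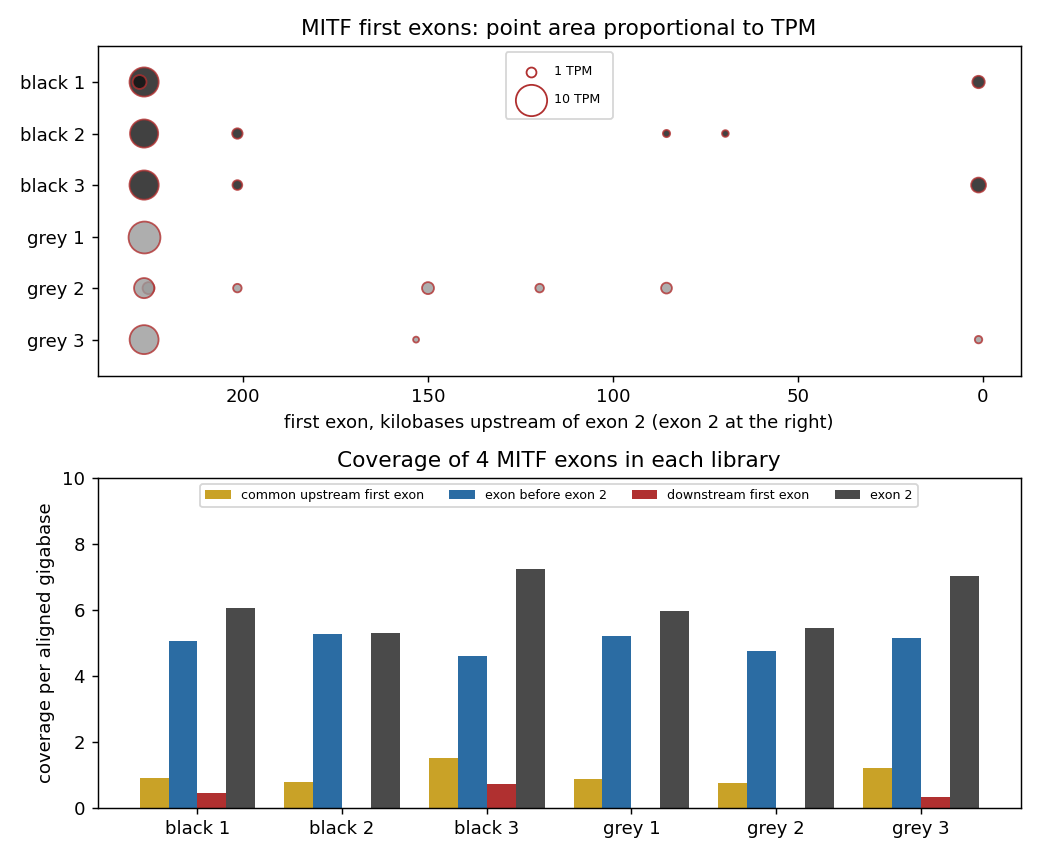
Top, MITF first exons by distance upstream of exon 2 (horizontal axis, kilobases) in each library (rows), with point area proportional to TPM. Bottom, coverage per aligned gigabase (vertical axis) of 4 MITF exons in each library; the downstream first exon was assembled in black replicates 1 and 3 and in grey replicate 3. Its transcripts are part of the exon 2 coverage.

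Of the other 8 MITF first exons, 6 were found in 1 library each. One at 172476711 to 172476843 was found in 3 libraries, at 1.11 and 0.97 TPM in black replicates 2 and 3 and at 0.74 TPM in grey replicate 2. Their own coverage was low, with 1.00 in black replicate 2 for the exon at 172344804.

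Further down the gene, an exon of 75 nt at 172255757 to 172255831 had an alternative acceptor that removed 18 nt. A difference of 18 nt at this exon separates the plus and minus forms of MITF in human and mouse, which differ in a short peptide before the DNA-binding domain. Both forms were assembled in all 6 libraries. Of the TPM of transcripts with either form, the longer took 78.2%, 28.5% and 81.1% in black, against 56.0%, 63.2% and 73.4% in grey. Black replicate 2 was the only library in which the shorter form prevailed, and the groups overlapped (exact permutation p = 1).

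The exon of 250 nt had an acceptor 3 nt further in. Among transcripts with this exon, the longer form was 80.2%, 100% and 100% of TPM in black, and 39.0%, 82.2% and 63.2% in grey, with black replicate 1 below grey replicate 2. The difference of 31.9 percentage points had an exact permutation p of 0.2. It was 1 of 6 shares tested, which were chosen after the exons had been seen, and the adjusted p over the 6 shares was 0.6.

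SOX10, the neural crest transcription factor upstream of MITF, was lower in black skin in every pair of libraries. It lies on chromosome 5, 296796962 to 296813292, on the reverse strand. It had 5.91, 7.80 and 6.11 TPM in black skin, against 9.31, 9.67 and 10.7 TPM in grey skin. The means were 6.61 ± 1.04 TPM in black and 9.88 ± 0.699 TPM in grey (SD, n = 3 each). The groups did not overlap, as was so for 2.27% of the genes tested in that direction (exact permutation p = 0.1). The log2 fold change was -0.52 ± 0.19 (SE), with a 95% interval of -0.97 to -0.07. Its unadjusted p of 0.0285 by limma was among the 2.29% of genes with an unadjusted p under 0.05, and its adjusted p was 1.00.

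The internal exons of SOX10 alone gave a difference of like size without separating the groups. The full transcript began at a first exon at 296814077 to 296814270, beyond the 5′ end of the RefSeq gene. In black replicate 1 and grey replicate 3, part of the TPM (2.00 and 4.93) belonged to forms of 2 exons that began inside the gene. Coverage per aligned gigabase of the 2 internal exons shared by all libraries was 1.55, 3.46 and 2.90 in black, against 4.28, 4.08 and 2.83 in grey. Grey replicate 3 was then below 2 of the 3 black libraries (exact permutation p = 0.3), while the log2 ratio of black to grey was -0.56. This measure counts an exon only where it is internal with the same boundaries. It leaves out the forms of 2 exons, and a 492 nt form of the exon of 497 nt that was assembled in 3 libraries. The overlap of the groups cannot be told apart from what is left out. In aligned bases per gigabase over the whole transcripts SOX10 had 8074, 11708 and 8985 in black and 13562, 13425 and 15154 in grey, again without overlap, as held for 1.68% of all genes in that direction.

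Schwann cells of skin nerves also express SOX10. The 7 genes of a Schwann cell list with a transcript summed to 324, 445 and 254 TPM in black and 654, 324 and 188 TPM in grey. S100B, a calcium-binding protein gene also expressed by other skin cells, was the highest with a mean of 224 TPM. PMP22, a myelin gene, followed at 79.5 TPM. None of the 7 passed the test (0 at adjusted and 0 at unadjusted p under 0.05, limma), and 6 had negative fold changes. In grey replicate 3 SOX10 was highest and the Schwann cell sum lowest of the 6 libraries. The part of Schwann cells in the SOX10 level was not tested.

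PAX3, the paired box factor that acts with SOX10 on MITF, was near the limit of assembly. It lies on chromosome 4, 277517443 to 277621956, on the forward strand, and had 2.08, 0.51 and 2.65 TPM in black skin, against 1.16, 1.14 and 0.95 TPM in grey skin. The black range enclosed the grey one, with a log2 fold change of 0.31 ± 0.42 (SE; 95% interval -0.68 to 1.29, adjusted p = 1.00, limma). These values rested on about 6.72 to 107 reads of 120 bp per library. The 9-exon transcript was assembled in grey replicate 3 only, and the other libraries held fragments of 2 to 7 exons. Since each fragment adds its TPM, aligned bases gave another order, with 839, 277 and 748 per gigabase in black and 193, 492 and 1250 in grey. PAX3 is also a gene of muscle precursors, and PAX7, its relative in satellite cells, was found in black replicate 1 only, at 2.12 TPM. The part of the muscle RNA of that library in PAX3 was not tested.

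KIT lies on chromosome 6, 155842098 to 155944703, on the reverse strand, and was assembled in full, with 21 exons and 1 first exon in all libraries. It had 4.23, 4.71 and 6.01 TPM in black skin, against 6.29, 7.02 and 4.08 TPM in grey skin. The groups overlapped, and the log2 fold change was -0.17 ± 0.26 (SE; 95% interval -0.78 to 0.44, adjusted p = 1.00, limma). Its ligand gene KITLG had 19.6, 15.4 and 15.7 TPM in black and 20.2, 27.1 and 12.2 TPM in grey.

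Exon 9 of KIT had 2 donors 12 nt apart, at 155862923 to 155863116 for the longer and 155862935 to 155863116 for the shorter exon. In human and mouse a choice of this kind adds the GNNK peptide next to the membrane. The longer form was 0%, 0% and 12.7% of KIT TPM in black skin, against 23.2%, 30.6% and 21.8% in grey skin. The groups did not overlap, with means of 4.22 ± 7.31% in black and 25.2 ± 4.73% in grey (SD, n = 3 each). The difference of -21.0 percentage points had an exact permutation p of 0.1, the smallest possible, and an adjusted p of 0.6 over the 6 shares.

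The depth behind this share was low. The coverage of exon 9 in its longer form was 1.48 in black replicate 3 and 1.69, 6.21 and 4.02 in grey replicates 1, 2 and 3. The shorter form had 12.7, 13.6 and 10.1 in black and 5.16, 13.7 and 14.2 in grey. In black replicates 1 and 2 only 1 KIT transcript was assembled, so a longer form with few reads there would not be listed.

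Mast cells depend on KIT throughout life. The 5 mast cell genes with a transcript summed to 222, 169 and 194 TPM in black skin and 214, 263 and 43.2 TPM in grey skin. CPA3, a granule protease gene, had 126, 73.5 and 94.7 TPM in black and 99.99, 114 and 19.9 TPM in grey, and the chymase gene CMA1 had 65.2, 75.4 and 71.3 TPM in black and 90.9, 113 and 4.77 TPM in grey. Grey replicate 3 was the lowest library for both proteases and for KIT, and grey replicate 2 the highest for KIT and for the sum. The part of mast cells in the KIT level was not tested.

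**Figure D3:**
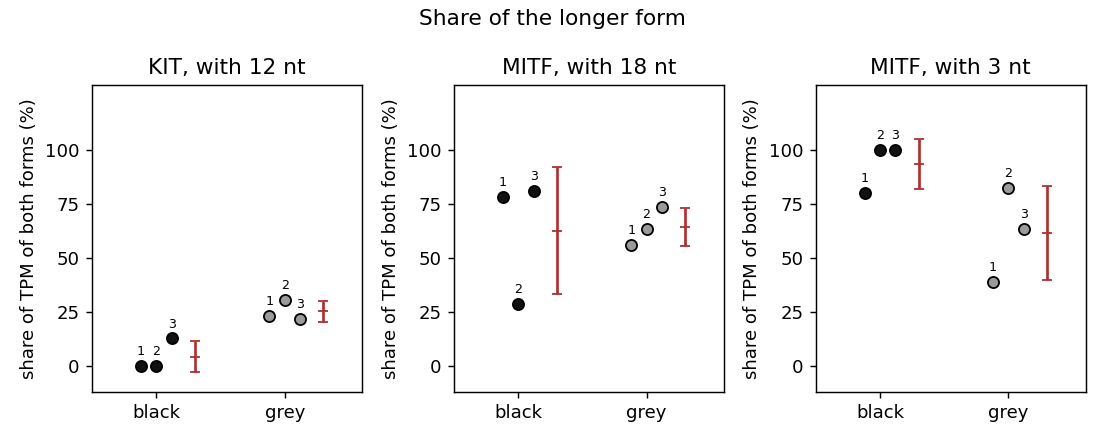
Share of the longer form in the TPM of transcripts with either form (vertical axes, percent) at 3 alternative exon boundaries in the 3 black and 3 grey libraries, numbered by replicate, with mean and SD in red. KIT forms with the 12 nt were at 0% to 12.7% in black and 21.8% to 30.6% in grey, while both MITF segments overlapped between colours.

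EDNRB lies on chromosome 4, 340302209 to 340328444, on the reverse strand, with 8 exons and 1 first exon in all libraries. It had 5.53, 5.60 and 9.59 TPM in black skin, against 6.81, 9.77 and 4.29 TPM in grey skin. The means were almost equal, 6.91 ± 2.33 TPM in black and 6.96 ± 2.74 TPM in grey (SD, n = 3 each), and the 95% interval of the log2 fold change was -0.78 to 0.81. Grey replicate 2 and black replicate 3 stood above the rest. The same 2 libraries were the highest for 9 melanin synthesis and melanosome genes, which summed to 161, 103 and 267 TPM in black and 77.0, 274 and 81.4 TPM in grey. In that list PMEL, the melanosome fibril gene, averaged 46.0 TPM, MLANA 43.5 TPM and DCT 30.3 TPM. Those 2 libraries were also the highest for smooth muscle and pericyte genes (731, 671 and 925 TPM in black, 547, 1387 and 560.0 TPM in grey). The same held for macrophage genes (79.5, 59.96 and 232 TPM in black, 83.98, 100.4 and 65.9 TPM in grey). It also held for sweat or other secretory gland genes (251, 376 and 408 TPM in black, 339, 629.7 and 222 TPM in grey). A separate list of sebaceous gland genes had 265, 211 and 161 TPM in black and 446, 514 and 321 TPM in grey. There black replicate 3 was the lowest library. Endothelial genes summed to 229.8, 185 and 172 TPM in black and 210.1, 241 and 156 TPM in grey. The part of these cell types in the EDNRB level was not tested. SOX10 and MITF did not share the order of EDNRB, as neither had its highest level in either library. The ligand gene EDN3 was at 2.24 to 4.68 TPM in black and 1.88 to 4.45 TPM in grey, and EDN1 at 10.4 to 18.3 TPM in black and 12.1 to 13.9 TPM in grey. The other endothelin receptor gene, EDNRA, averaged 16.9 TPM, above EDNRB.

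ERBB3 lies on chromosome 5, 266538546 to 266572571, on the reverse strand. It had 60.3, 54.7 and 57.2 TPM in black skin, against 50.9, 73.4 and 95.8 TPM in grey skin. The grey libraries spread on both sides of the black ones, with a log2 fold change of -0.30 ± 0.24 (SE; 95% interval -0.87 to 0.26, adjusted p = 1.00, limma). Over 27 internal exons shared by all libraries, coverage per aligned gigabase was 27.1, 23.9 and 27.4 in black and 22.2, 25.4 and 41.9 in grey, so that grey replicate 3 alone stood high. ERBB2, the kinase partner of ERBB3, had 25.3, 24.2 and 25.9 TPM in black and 29.3, 28.3 and 32.2 TPM in grey. The ERBB2 groups did not overlap, but the difference did not pass the test (log2 fold change -0.24 ± 0.14, adjusted p = 1.00, limma). The neuregulin genes NRG1 and NRG2 averaged 3.52 and 4.65 TPM.

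By TPM, most ERBB3 transcripts as assembled did not begin at the RefSeq start. A first exon assembled in all 6 libraries ended 16884 nt inside the RefSeq gene, and transcripts that reached the RefSeq 5′ end took 2.88%, 24.95% and 10.7% of ERBB3 TPM in black, against 0%, 38.6% and 18.6% in grey. In grey replicate 3 the transcript that did so had 39 exons and ran through from the neighbouring pseudogene. The shares of transcripts that reached the RefSeq 5′ end overlapped and were not tested. Coverage per aligned gigabase of the common first exon was 0.73, 1.06 and 0.85 in black and 1.18, 0.59 and 0.47 in grey. A distal exon had 1.33, 5.73 and 0.79 in black and 0, 0.61 and 5.01 in grey. Both were below the shared internal exons in every library, so starts inside the gene cannot be told apart from incomplete assembly.

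TFAP2A and TFAP2B, the AP-2 factors, were among the most abundant of the 9, and both had their highest TPM in black replicate 1, the library with skeletal muscle RNA. TFAP2A, on chromosome 1 at 177068319 to 177086173, had 44.4, 31.8 and 32.2 TPM in black skin, against 33.3, 39.2 and 31.1 TPM in grey skin. TFAP2B, on chromosome 7 at 231019736 to 231046841, had 42.0, 22.5 and 17.4 TPM in black, against 26.5, 23.4 and 18.4 TPM in grey. Both lie on the reverse strand. Their log2 fold changes were 0.05 ± 0.19 and 0.17 ± 0.33 (SE; both adjusted p = 1.00, limma), and without black replicate 1 they were -0.10 and -0.18.

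Black replicate 1 stood apart for TFAP2B on the TPM scale only. Its transcripts there ended earlier at the 3′ side than in the other 5 libraries. The longest had 5731 nt, beside 5742 nt in grey replicate 1 and up to 11780 nt in black replicate 3. TPM is scaled to the assembled length, but the part of length in this value was not tested. Over the 5 internal TFAP2B exons shared by all libraries, coverage per aligned gigabase was 27.3, 25.95 and 25.9 in black and 16.3, 31.1 and 16.03 in grey. For TFAP2A the 6 shared exons gave 21.7, 20.5 and 23.3 in black and 17.9, 23.9 and 18.3 in grey. On this scale the black libraries were alike and grey replicate 2 was the highest for both genes.

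Both AP-2 genes had many assembled starts, with 10 first exons each, of which 6 for TFAP2A and 5 for TFAP2B also occurred with the same donor inside longer transcripts. The TFAP2A first exon that began furthest upstream, at 177091016 to 177091315, carried 36.2%, 47.8% and 61.8% of its spliced TPM in black and 34.3%, 41.4% and 39.4% in grey, with no separation (exact permutation p = 0.3). Epithelium is the main other site of these genes. TFAP2C, their relative in keratinocytes, averaged 70.8 TPM, above both. Among basal keratinocyte genes COL17A1, a hemidesmosome collagen, averaged 312 TPM and TP63, the regulator of stratified epithelium, 42.9 TPM. The part of keratinocytes in the AP-2 levels was not tested.

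TRPM1 was higher in black skin in every pair of libraries by TPM, on very few reads. It lies on chromosome 8, 141884561 to 142060295, on the reverse strand. It had 2.51, 2.15 and 4.02 TPM in black skin, against 0, 1.17 and 0.81 TPM in grey skin, where grey replicate 1 had no assembled transcript and is listed at 0. The groups did not overlap, as was so for 4.06% of the genes tested in that direction (exact permutation p = 0.1). The log2 fold change was 1.27 ± 0.41 (SE), with a 95% interval of 0.30 to 2.25, an unadjusted p of 0.0178 and an adjusted p of 1.00 (limma). The fold change depends on the constant added before taking logs, and was 2.57 with a pseudocount of 0.1. TRPM1 passed the filter of 1 TPM only through its black libraries (means 2.89 TPM in black and 0.66 TPM in grey). Its interval and p-values by limma are therefore not an unbiased test of black above grey.

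No library held a complete TRPM1 transcript. The 22 pieces had 2 to 7 exons and a coverage of 1.09 to 3.57. In reads of 120 bp the gene received about 21.4, 29.2 and 46.2 in black and 0, 33.95 and 9.95 in grey. Scaled to depth, that was 339, 412 and 856 bases per aligned gigabase in black and 0, 487 and 117 in grey. Grey replicate 2 then lay above black replicates 1 and 2, and the groups overlapped (exact permutation p = 0.3). The grey library listed at 0 was also the shallowest, and at this depth the size of a TRPM1 difference could not be measured with any precision.

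**Figure D4:**
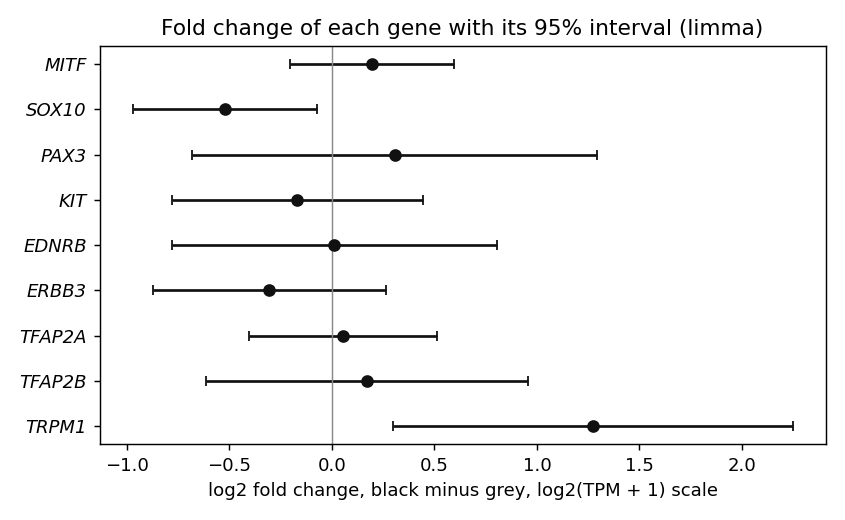
Log2 fold change of each gene (black minus grey, log2(TPM + 1) scale, horizontal axis) with its 95% interval from limma. The intervals of SOX10 (-0.97 to -0.07) and TRPM1 (0.30 to 2.25) exclude 0 before adjustment over 15523 genes and the other 7 include it. TRPM1 passed the filter on mean TPM only through its black libraries, so its interval is not an unbiased test.

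**Figure D5:**
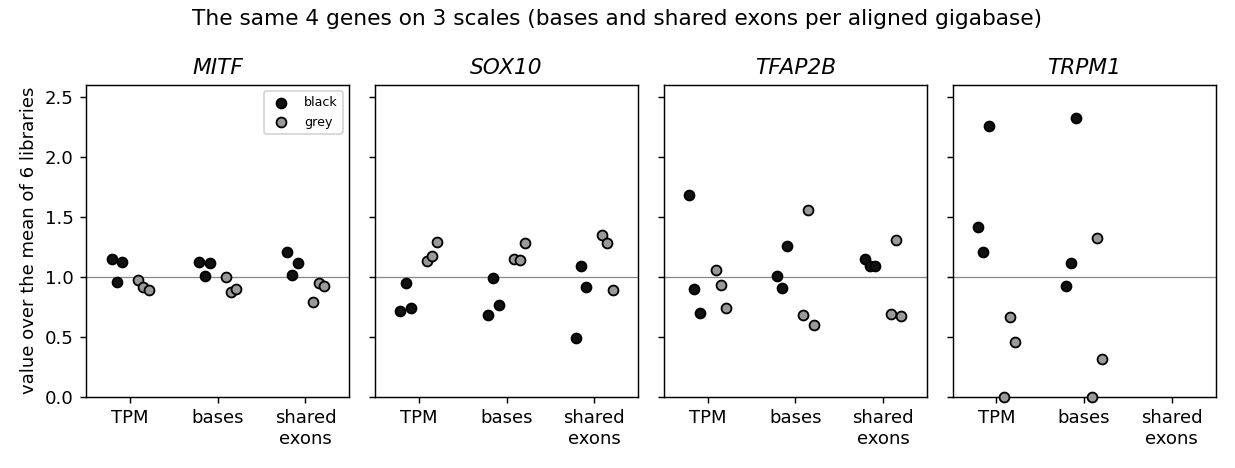
Values of MITF, SOX10, TFAP2B and TRPM1 in the black and grey libraries, each over the mean of the 6 (vertical axis), as TPM, as aligned bases per gigabase and as coverage of internal exons shared by all libraries (horizontal axis; TRPM1 has no shared exon). SOX10 separates by TPM and bases but not by shared exons, TRPM1 by TPM only, and MITF by bases and shared exons. Shared exons leave out exon forms with other boundaries and exons that begin or end a transcript.

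The rest of the pathway showed as little difference. Of 40 related genes (ligands, partner receptors, relatives and other regulators of the lineage), 35 had a transcript and 29 were tested. None was called, and none had an unadjusted p under 0.05 (limma). Their median log2 fold change was -0.01, beside 0.04 for all genes tested, with 14 positive and 15 negative. SNAI2, a zinc finger factor of neural crest cells, was the most abundant with a mean of 73.5 TPM, followed by TFAP2C and by HIF1A at 46.6 TPM. SOX9 and SOX8, relatives of SOX10, averaged 29.2 and 30.4 TPM and had their highest levels in grey replicate 1, at 52.6 and 64.7 TPM. The MITF relative TFEB averaged 15.4 TPM, while IRF4, an MITF partner at pigment genes, averaged 0.88 TPM and was not tested. FOXD3 was found in black replicate 1 only, at 1.37 TPM. The melanocyte list itself had 9 of 9 genes tested and none called, with a median of 0.24.

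Profiles over the 6 libraries were compared by the root mean square difference of mean-centred log2(TPM + 1), which describes likeness in 6 points only. The nearest named gene to MITF was ANKFY1 (0.0280), to SOX10 C1GALT1 (0.0766), to PAX3 TMEM106A (0.0798) and to KIT APOOL (0.0586). For EDNRB it was CUEDC2 (0.0615), for ERBB3 BRD3 (0.0691), for TFAP2A DNTTIP2 (0.0426) and for TFAP2B SYT1 (0.0778). For TRPM1 it was WDR49 (0.166), which like TRPM1 was listed at 0 in grey replicate 1. None of the 9 was among the 3 nearest named genes of another.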

How the data were processed

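Ear punch skin of 3 black and 3 grey possums was analysed. The authors trimmed 120 bp single-end reads (Trim Galore 0.6.10), mapped them (HISAT2 2.2.1), discarded amplicon contamination and assembled each library (StringTie 2.2.0). The deposited files give coverage, FPKM and TPM per transcript but not read counts, which precluded count models. RefSeq spans were given without exons or strand, which were inferred from transcripts matching a span (0.5 or more of the union shared, or 80% inside). Of 274079 transcripts, 232356 were assigned, 801 by name only and the rest by same-strand exon overlap. None of the 9 genes' transcripts carried a guide name. Aligned bases are coverage over FPKM. Reads are coverage times length over 120.

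Black and grey were compared with limma 3.58.1 (R 4.3.3, trend) on log2(TPM + 1), mean at least 1 TPM, and by exact 2-sided permutation. The fit was tested on simulated data. The labels do not say more than that samples are separate, so p-values measure the spread between these samples. Members, lists and rules were chosen with earlier results of these data known. Named genes were the 9, the 3 most abundant of each list, any called, and the nearest profiles; the keratinocyte, muscle, ligand, receptor and regulator genes beyond these were named after their values were seen. Alternatives were other pseudocounts (0.1, 0.5), filters, scalings, weights, a replicate block and leaving out each library. Coverage of shared internal exons was added, and the 6 shares were picked among the assembled exons, after seeing the data. Sequences were not used here, and 1 gene that the naming rule selects is not reported here.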

Additional observations from a re-analysis of the deposited data

How the results depend on the processing

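Under 17 other settings of the fit no member passed the threshold (151 values, lowest adjusted p 0.993, limma). MITF, SOX10, PAX3, KIT, ERBB3 and TRPM1 kept the sign of their log2 fold change. EDNRB was -0.017 with median centring and -0.057 with library weights, and TFAP2A -0.034 with weights. Leaving out 1 library gave -0.25 to 0.26 for EDNRB, -0.10 to 0.15 for TFAP2A, -0.18 to 0.43 for TFAP2B, 0.052 to 0.69 for PAX3, -0.36 to -0.036 for KIT and -0.54 to -0.091 for ERBB3. Black minus grey totals turned for PAX3 in bases per aligned gigabase (-23.7), and for EDNRB in those bases (842) and in shared exon coverage (0.155). Without 1 library those totals ran from -1.39 to 1.36 TPM for EDNRB, -2.51 to 3.98 TPM for TFAP2A and -2.81 to 9.49 TPM for TFAP2B. Likewise, the common MITF first exon ran from -20.7 to 8.14 percentage points and the MITF 18 nt segment from -10.8 to 15.4, the downstream MITF first exon from 4.45 to 13.9, the TFAP2A first exon from 3.64 to 16.4 (20.9 with first exons grouped by overlap) and the KIT segment from -25.2 to -18.3. The cause was not tested.

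Over all genes, the number higher in black was 1 with a pseudocount of 0.1 or multi-exon transcripts only and 0 with a mean of at least 5 TPM. Leaving out 1 library gave 0 to 2 higher and 0 to 1 lower. With a replicate block 0 were higher and 0 lower. The replicate numbers did not pair the samples (correlations of deviations -0.02, 0.02 and -0.05), so that block has no basis in the design, and no black library correlated best with the grey library of its own number except replicate 2.

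PAX3 and TRPM1 have no value at a mean of at least 5 TPM and no shared internal exon, and overlap of first exons gives none for segments. Depth limits PAX3 and TRPM1 most. Estimates of reads cover counting error only, and transcripts with few reads are not assembled.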

Other observations

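Some transcripts lay in the spans of the 9 genes without being assigned to them. Same-strand pieces at the distal end of ERBB3 had 2.75 TPM in black replicate 1 and 12.1 TPM in grey replicate 1. Pieces at the 3′ side of TFAP2B had 6.57 TPM in black replicate 2, and 5.997 and 3.36 TPM in grey replicates 1 and 3, and 1 piece at TFAP2A had 5.07 TPM in grey replicate 2. On the strand opposite SOX10, transcripts had 0.66 TPM in black replicate 1 and 0.86 TPM in grey replicate 3. These are the 2 libraries in which short SOX10 forms were assembled. On the strand opposite TRPM1, 1 transcript had 0.58 TPM in black replicate 1.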
